A study of Mus musculus with 5 samples.

Results

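*Areg*, *Hbegf*, *Ereg* and *Tgfa*, 4 genes of the epidermal growth factor (EGF) family of ligands, were followed by name among the 27726 genes common to 5 single-cell RNA libraries of sorted mouse lung group 2 innate lymphoid cells (ILC2s). All mice were wild-type C57BL/6 females of 4 to 8 weeks, the cells were sorted as Lin- ST2+ CD127+ Thy1.2+ CD45+, and each library pooled the cells of 5 mice. The naïve library came from mice without a tumour. The ta-non-activated libraries came from mice that carried a subcutaneous TC1 tumour, a murine lung tumour line, at week 2 or week 3. Their labels read non-activated, and by the study's methods such cells went to sequencing at once, without culture. The ta-activated libraries came from tumour-bearing mice at the same weeks and were first cultured for a week with rhIL-2, rmIL-33 and TSLP. There were thus 1 naïve, 2 ta-non-activated and 2 ta-activated libraries, and the replicate number and the week are the same thing. Nothing else ties a library to its mice, so the spread between libraries includes that between pools and between weeks.

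EGF family ligands are made as membrane-bound precursors that the protease ADAM17 cuts free, and the released ligand binds the EGF receptor or its ErbB relatives on a neighbouring cell. Amphiregulin, the product of *Areg*, is the member that ILC2s are known for: it acts on epithelium in lung repair. *Hbegf* encodes heparin-binding EGF-like growth factor, *Ereg* epiregulin and *Tgfa* transforming growth factor alpha. Also examined was how *Areg* varied with *Il13*, the type 2 cytokine of ILC2s, and with *Nr4a1*, an immediate early nuclear receptor that lymphocytes switch on within minutes of a stimulus.

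In GRCm38 with the GENCODE M21 annotation, *Areg* (ENSMUSG00000029378) lies on chromosome 5 at 91139599 to 91148432, plus strand, and *Ereg* (ENSMUSG00000029377) ends 45952 bases before it, at 91074622 to 91093646 on the same strand. *Epgn* and *Btc*, further EGF family ligands, flank this pair. *Tgfa* (ENSMUSG00000029999) lies on chromosome 6 at 86195223 to 86275719, plus strand. The introns of *Tgfa* span 74007 bases, against 7619 in *Areg*. The naïve matrix was made with another Cell Ranger version than the other 4. Whether reads in introns were counted is not given in the sources used here. How the naïve level of *Tgfa*, or of any other gene, compares with those of the other 4 libraries is therefore uncertain. Each contrast with naïve below carries this limit.

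The 250 bases before the RefSeq start of *Areg* (GRCm38.p6, chr5:91139349-91139598, plus strand) and of *Nr4a1* (chr15:101266596-101266845, plus strand) are shown since the levels of these genes ran together over naïve cells. Capitals mark TGACG, the core of the cAMP response element (CRE), or CGTCA, the same letters on the other strand.
Areg: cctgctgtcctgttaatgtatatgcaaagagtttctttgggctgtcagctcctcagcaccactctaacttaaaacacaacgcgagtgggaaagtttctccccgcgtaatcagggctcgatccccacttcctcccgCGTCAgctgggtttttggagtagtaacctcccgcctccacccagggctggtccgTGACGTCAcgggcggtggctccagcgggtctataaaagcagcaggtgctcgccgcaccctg
Nr4a1: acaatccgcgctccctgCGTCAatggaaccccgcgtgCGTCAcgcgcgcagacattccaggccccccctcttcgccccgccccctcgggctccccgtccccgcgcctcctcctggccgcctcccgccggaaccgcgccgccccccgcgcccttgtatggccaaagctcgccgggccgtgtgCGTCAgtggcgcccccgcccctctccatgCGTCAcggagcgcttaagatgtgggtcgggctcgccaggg
The *Areg* stretch holds the full palindromic element TGACGTCA, which ends 53 bases before the start and counts as 2 overlapping matches of the core, and 1 further core match. The full element occurs in 1.55% of 32851 promoters of this length, searched on both strands, and 3 or more core matches in 0.688%. The *Nr4a1* stretch holds 4 core matches and no full element, and 4 or more occur in 0.137% of promoters. The AP-1 letters TGAGTCA or TGACTCA and the NR4A letters AAAGGTCA were found in neither stretch, and they occur in 4.46% and 1.34% of promoters. In the same window *Il13* held 1 core match and *Tgfa* none. RefSeq promoters were matched for 2 of the 4 ligands, *Areg* and *Tgfa*. The limits of 3 and 4 core matches equal the counts in these 2 stretches, and the promoters were not matched for base composition. These matches describe letters and not binding, and whether they bear on the levels was not tested.

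Of 18628 barcodes, 16530 had at least 200 genes and under 5% mitochondrial counts: 6389 naïve, 1823 and 1601 ta-non-activated and 2895 and 3822 ta-activated cells (week 2, then week 3). They held 32395387 naïve UMIs (unique molecular identifiers, 1 per RNA molecule captured), 33230285 and 9394957 ta-non-activated UMIs, and 57352180 and 61830293 ta-activated UMIs. Cells whose UMIs of 8 ILC2 markers outnumbered those of each of 10 lists for other cell types are called ILC2-marker cells, and 76 to 199 cells per library lay within 1 UMI of that limit. They made up 90.4% to 97.5% of 4 libraries but 42.1% (674 cells) of ta-non-activated week 3, where 888 cells (55.5%) had more UMIs of 6 T-cell markers than of ILC2 markers. In that library the T-cell list summed to 1762 CPM (UMIs per 1000000 UMIs), with none of its 6 genes at 0, against 6.71 to 176 CPM elsewhere. Levels are therefore given over all cells and over ILC2-marker cells. The library labelled ta-non-activated week 2 also stood apart: over 8854 genes its ILC2-marker cells correlated at 0.870 and 0.856 with the ta-activated libraries, at 0.783 with ta-non-activated week 3 and at 0.595 with naïve (Pearson's r of log2(CPM + 1), a description). Its *Il9*, a cytokine of ILC2s, was at 12447 CPM against 0 to 271 CPM in the other 4. By these correlations it was nearer to the cultured libraries than to its own group. Single genes went either way. In the ILC2-marker cells of this library *Fos*, an immediate early gene, stood at 0.701 CPM. It was at 1288 CPM in ta-non-activated week 3 and at 1.93 and 1.44 CPM in the ta-activated libraries. The library's *Timp3* stood at 0.319 CPM, against 0.493 CPM (1 UMI) in ta-non-activated week 3 and 21.2 and 120 CPM in the ta-activated libraries. Whether the label of this library is right was not tested, and each contrast that uses it takes that label as given. Pairs of libraries shared 1 to 8 barcodes.

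*Areg* was abundant in every library, and its place in the order of libraries depended on which cells were summed. Over all cells it stood at 945 CPM in naïve, 352 and 237 CPM in ta-non-activated weeks 2 and 3, and 1090 and 599 CPM in ta-activated weeks 2 and 3. All 5 exact Poisson 95% intervals were apart, but they cover counting error only and not the difference between mice. Both ta-activated libraries thus lay above both ta-non-activated ones, and naïve lay between the ta-activated pair.

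Over ILC2-marker cells *Areg* stood at 1000.4 CPM in naïve, 361 and 954 CPM in ta-non-activated weeks 2 and 3, and 1105 and 609 CPM in ta-activated weeks 2 and 3. The order became ta-activated week 2, naïve, ta-non-activated week 3, ta-activated week 3 and ta-non-activated week 2. The naïve interval (989 to 1012 CPM) and that of ta-non-activated week 3 (912 to 997.3 CPM) overlapped at their ends. Overlap does not show that these neighbours were equal, and their difference was not tested. The ta-non-activated and ta-activated groups now overlapped. T-marker cells of ta-non-activated week 3 held *Areg* at 38.7 CPM, near the 28.8 and 27.2 CPM of T-marker cells in naïve and ta-activated week 2, and the rise from 237 to 954 CPM in that library came with leaving them out. In ta-activated week 2, 69 cells led by the mast cell and basophil list, 3 of whose 5 markers were at 0 in that library, held *Areg* at 1596 CPM, and the library's level was 1105 CPM without these and all other cells outside the ILC2-marker set. In a level summed over cells, fewer cells of a type and less RNA per cell cannot be told apart, so levels of marker-defined sets and shares of cells are also given.

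**Figure D1:**
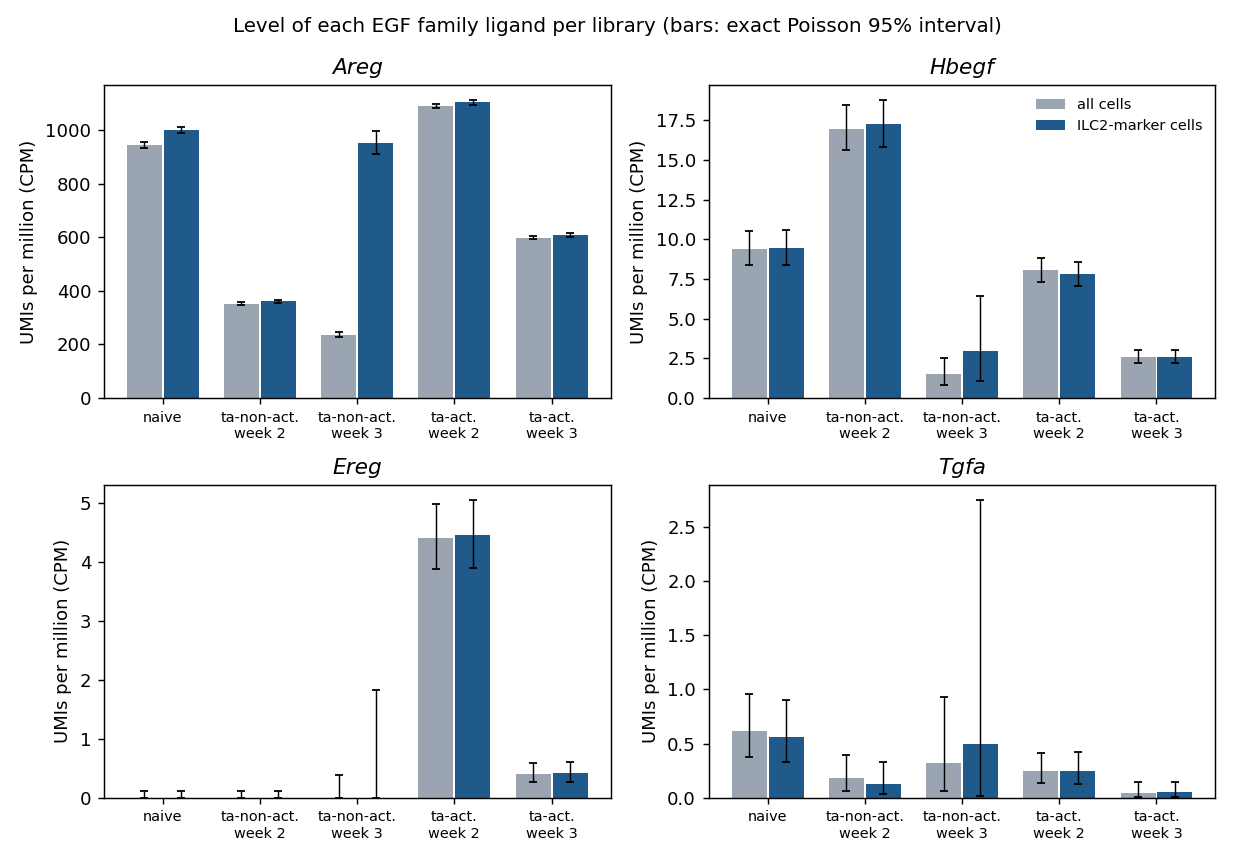
Level of each ligand (vertical axis, CPM) in the 5 libraries (horizontal axis), for all kept cells in grey and ILC2-marker cells in blue, with exact Poisson 95% intervals. The 2 bars differ visibly for *Areg* in ta-non-activated week 3 (237 and 954 CPM), and *Ereg* has no UMI in the naïve and ta-non-activated libraries.

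The comparison of ta-activated with ta-non-activated ILC2s asks what culture with the 3 cytokines changes in cells of tumour-bearing mice, and it is the only replicated one. Mean *Areg* was 845 ± 347 CPM in ta-activated and 295 ± 81.3 CPM in ta-non-activated libraries (SD, n = 2 each, all cells). In edgeR's quasi-likelihood test the log2 fold change was 1.40 (SE 0.52) with an adjusted p of 0.294, which did not pass the threshold of 0.05. Over ILC2-marker cells the means were 857 ± 350 and 657 ± 419 CPM, and the log2 fold change was 0.22 (SE 0.62, edgeR adjusted p = 0.908). Of the 12643 genes tested, 0 were called by edgeR, or 0% (2120 at an unadjusted p under 0.05), while DESeq2 called 1160 of 12695. No ligand was among the edgeR calls. Without ta-non-activated week 2 edgeR called 1646 genes and *Areg* was at 1.91 on the log2 scale with an adjusted p of 0.088, and without ta-non-activated week 3 it called 513 genes and *Areg* was at 1.03 with an adjusted p of 0.223.

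Taken week by week over ILC2-marker cells, the ta-activated cells held 3.06-fold more *Areg* at week 2 and 1.57-fold less at week 3. These are ratios of summed levels, 1 library to 1, with no replicate check. As a mean over ILC2-marker cells, week 3 *Areg* was 828 CPM in the ta-non-activated and 682 CPM in the ta-activated library. At week 2, 16.8% of 7517 genes at 10 CPM or more were at least 2-fold higher and 11.1% at least 2-fold lower. At week 3 these shares were 23.7% and 10.5% of 7866 genes, and *Areg* was among neither. Against naïve, *Areg* was 2.77-fold lower in ta-non-activated week 2, and 35.3% of 8272 genes were lower by at least 2-fold and 22.6% higher. It was within 1.05-fold of naïve in ta-non-activated week 3, where 27.8% of 7889 genes were lower and 3.28% higher. Between the ta-activated libraries *Areg* was 1.81-fold lower at week 3, under the 2-fold limit that 2.36% of genes passed downward and 3.37% upward.

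The share of cells with an *Areg* UMI was compared at equal depth, after each cell was thinned to 2000 UMIs. Over all cells the share was 22.9% thinned and 51.7% unthinned in ta-non-activated week 2, and 41.5% and 53.3% in naïve. At equal depth it was 43.9% of 5737 naïve ILC2-marker cells, 23.5% of 1705 and 31.8% of 592 ta-non-activated cells and 55.1% of 2579 and 45.1% of 3656 ta-activated cells (week 2, then week 3). Both ta-activated libraries lay above both ta-non-activated ones on this measure, in all cells as in ILC2-marker cells. The naïve interval (42.6% to 45.2%, Clopper-Pearson 95%) overlapped that of ta-activated week 3 (43.5% to 46.7%). T-marker cells, taken as the cell type for background, had an *Areg* UMI in 7.19% of 876 cells of ta-non-activated week 3 and 5.32% of 263 naïve cells at the same depth, and the ILC2-marker shares lay above this background. Cells under 2000 UMIs were left out, 14 to 242 per library. Before thinning, the median depth was 2982 UMIs in ILC2-marker cells and 6270 in T-marker cells of ta-non-activated week 3.

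**Figure D2:**
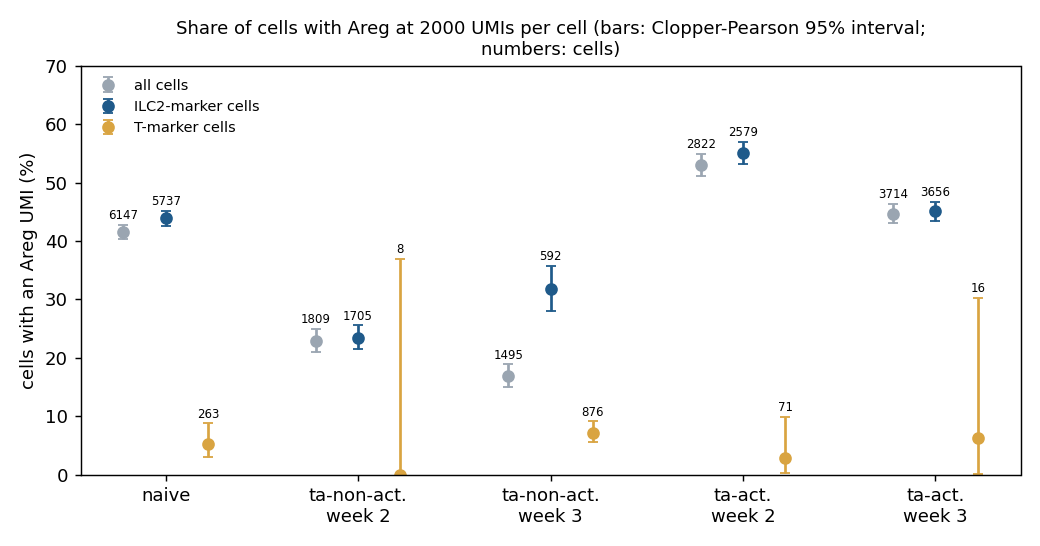
Share of cells with at least 1 *Areg* UMI (vertical axis, %) after thinning to 2000 UMIs per cell, by library (horizontal axis), for all kept cells, ILC2-marker cells and T-marker cells, with Clopper-Pearson 95% intervals and the number of cells above each. ILC2-marker cells range from 23.5% to 55.1%, while T-marker cells stay at 7.19% or below.

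*Areg* was unevenly spread among the cells of each library. The median ILC2-marker cell had 0 *Areg* UMIs of 2000 in 4 libraries and 1 in ta-activated week 2. The 10% of cells with the most *Areg* held 61.5% of its UMIs in naïve, 78.9% and 72.7% in ta-non-activated weeks 2 and 3, and 54.8% and 55.8% in ta-activated weeks 2 and 3. The variance was 5.53 to 10.99 times the mean. A ta-activated week 2 cell held 1285 *Areg* UMIs before thinning, 2.05% of that library's *Areg*. The ta-non-activated week 3 library thus reached a level near naïve with fewer positive cells (31.8% against 43.9%), in ILC2-marker cells that were shallower (a median of 2812 against 4522 UMIs).

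*Nr4a1* was the gene most correlated with *Areg* over naïve cells. Its r was 0.398 over 6147 cells (Pearson, ln(1 + UMIs) at 2000 UMIs per cell), which ranked 1 among 4812 genes found in at least 5% of cells. In ta-non-activated week 3 r was 0.367 over 1495 cells and *Nr4a1* ranked 21 of 4473 genes. Over ILC2-marker cells these values were 0.396 and 0.355, so they were about as large without the T-marker cells. In naïve ILC2-marker cells mean *Areg* was 0.748 UMIs per 2000 where *Nr4a1* had none, 1.61 at 1 *Nr4a1* UMI, 2.73 at 2 to 3 and 4.37 at 4 or more, in 2576, 1101, 1083 and 977 cells. In ta-non-activated week 3 the same bins gave 0.819, 2.75, 3.37 and 3.27 UMIs, and the last bin rests on 37 cells. Cells of a library share its preparation and its free RNA, so these correlations describe the library and carry no p.

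*Nr4a1* itself was at 902 CPM in naïve and 437 CPM in ta-non-activated week 3, against 5.64 CPM in ta-non-activated week 2 and 4.03 and 12.8 CPM in ta-activated weeks 2 and 3 (ILC2-marker cells). With so few UMIs its r with *Areg* was 0.046, 0.133 and 0.126 in the last 3 libraries, and it was found in under 5% of their cells. *Areg* stood at 361 to 1105 CPM in these same libraries, so its level did not follow that of *Nr4a1* over the 5 libraries. The 71 ta-activated week 3 cells with 1 *Nr4a1* UMI held 4.15 *Areg* UMIs per 2000, against 1.30 in the 3576 cells without.

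*Il13* took the first rank where it was abundant. It stood at 8934 CPM in ta-non-activated week 2 and 3590 and 4253 CPM in ta-activated weeks 2 and 3, against 59.3 CPM in naïve and 89.8 CPM in ta-non-activated week 3 (ILC2-marker cells). Its r with *Areg* was 0.248, 0.352 and 0.270 in the 3 high libraries, over 1809, 2822 and 3714 cells, and it ranked 1 of 4168, 4388 and 4565 genes. In ta-activated week 2 mean *Areg* was 1.17 UMIs per 2000 in cells without *Il13*, 1.29 at 1 to 4 *Il13* UMIs, 2.48 at 5 to 19 and 7.96 at 20 or more. The same bins gave 0.591, 0.861, 1.86 and 2.84 in ta-activated week 3 and 0.271, 0.275, 0.725 and 1.39 in ta-non-activated week 2. At like *Il13*, *Areg* was thus lower in ta-non-activated week 2 than in either ta-activated library.

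In the libraries with little *Il13* its cells were few but *Areg*-rich. The 250 naïve ILC2-marker cells with 1 to 4 *Il13* UMIs held 4.07 *Areg* UMIs per 2000, against 1.79 in the 5465 without. In ta-non-activated week 3 the 27 such cells held 4.0, against 1.52 in 561. The r was 0.143 in naïve and 0.253 in ta-non-activated week 3 over all cells, or 0.227 over the ILC2-marker cells of the latter, where *Il13* ranked 83 of 3994 genes.

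**Figure D3:**
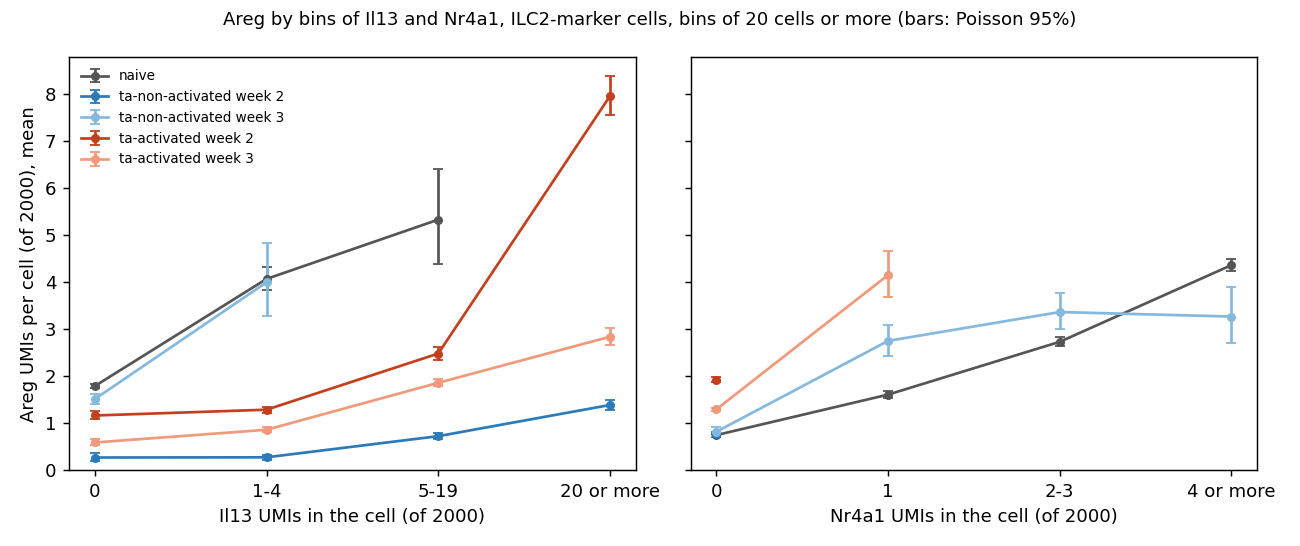
Mean *Areg* UMIs per ILC2-marker cell at 2000 UMIs (vertical axis) by the cell's *Il13* UMIs (left) or *Nr4a1* UMIs (right). There is 1 line per library, for bins of at least 20 cells. Bars are exact Poisson 95% intervals, which leave out the spread between cells. *Areg* is 7.96 in the top *Il13* bin of ta-activated week 2 and 4.37 in the top *Nr4a1* bin of naïve, where the bins without the partner hold 1.17 and 0.748.

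Over the 5 libraries together, the 10 genes whose pattern over cells was most like that of *Areg* were *Nfkbia*, *Furin*, *Il5*, *Junb*, *Pim1*, *Gadd45b*, *Btg1*, *Srgn*, *Sub1* and *Csf2*. Likeness was the mean of the 5 within-library values of r, over 2862 genes found in at least 5% of cells of every library, and ran from 0.299 for *Nfkbia* to 0.186 for *Csf2*. *Nfkbia* encodes the NF-kB inhibitor IkB-alpha, *Furin* a protease that matures precursors, and *Il5* and *Csf2* cytokines of ILC2s. All 10 were positive in every library. *Il13* and *Nr4a1* could not enter this list, since each is below the detection minimum in some libraries. The leading gene differed between libraries, and *Ifrd1* led in ta-non-activated week 3 with an r of 0.519.

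**Figure D4:**
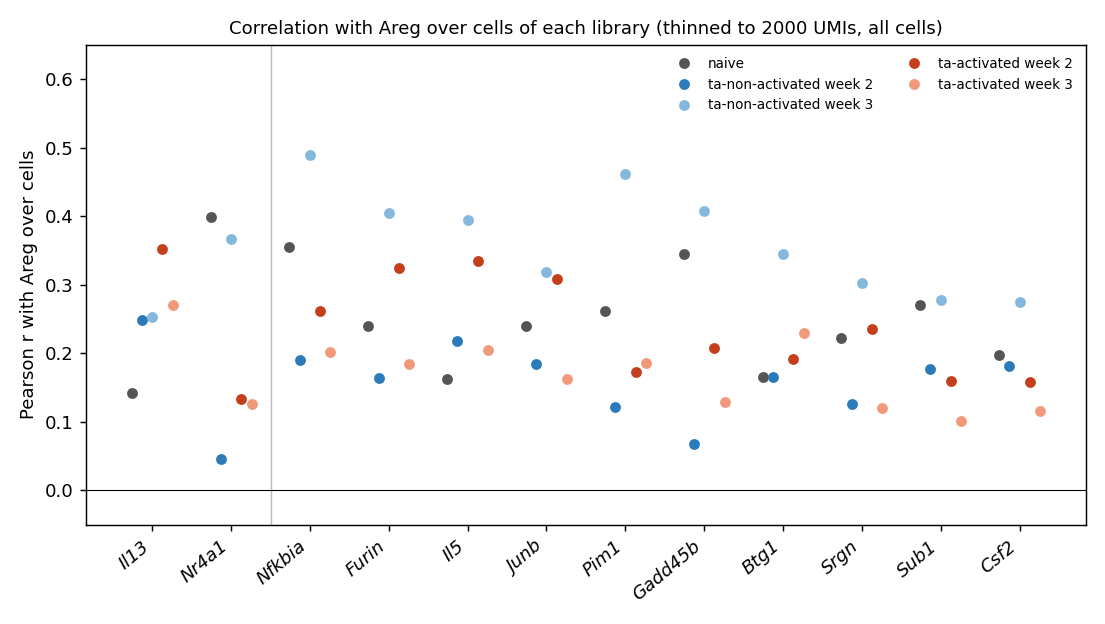
Pearson's r with *Areg* over the cells of each library (vertical axis) for *Il13*, *Nr4a1* and the 10 genes most like *Areg* (horizontal axis), all kept cells at 2000 UMIs, 1 point per library. *Nr4a1* is near 0.4 in naïve and ta-non-activated week 3 and at 0.133 or below in the other 3, and the 10 genes are above 0 in all 5.

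*Hbegf* (ENSMUSG00000024486, chromosome 18 at 36504927 to 36515805, minus strand) was measured at a low level and ordered the libraries differently from *Areg*. Over all cells it stood at 9.41 CPM in naïve (305 UMIs), 17.0 and 1.49 CPM in ta-non-activated weeks 2 and 3 (564 and 14 UMIs), and 8.04 and 2.59 CPM in ta-activated weeks 2 and 3 (461 and 160 UMIs). Ta-non-activated week 2, where *Areg* was low, held the most *Hbegf*, and the groups overlapped. Over ILC2-marker cells the values were 9.46, 17.3, 2.96, 7.79 and 2.58 CPM in the same order, with 6 UMIs behind 2.96 CPM (95% interval 1.09 to 6.44). The edgeR log2 fold change with activation was -1.01 (SE 1.26, adjusted p = 0.700), and it turned to 1.92 without ta-non-activated week 2. ILC2-marker cells with an *Hbegf* UMI before thinning held more *Areg* in ta-activated week 2, 3.63 against 1.87 UMIs per 2000. They were also deeper, with medians of 45131.5 and 13369 UMIs. In ta-non-activated week 2 the same split gave 0.829 and 0.775. Over cells *Hbegf* and *Areg* correlated at 0.008 to 0.049 in the ILC2-marker cells of the 5 libraries, with 3 to 66 cells positive.

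*Ereg*, the neighbour of *Areg* on chromosome 5, had UMIs in the ta-activated libraries only, 252 in ta-activated week 2 (4.39 CPM, 95% interval 3.87 to 4.97) and 25 in ta-activated week 3 (0.404 CPM, 0.262 to 0.597). It was at 0 UMIs in naïve and in both ta-non-activated libraries, which allows up to 0.0926, 0.0903 and 0.319 CPM (3 counts per library). The week 2 level was 48.7-fold above the limit of the library labelled ta-non-activated week 2. The ta-activated week 3 interval held the limit of ta-non-activated week 3 (0.319 CPM), so no difference was detectable there. Over ILC2-marker cells that limit was 1.48 CPM, above the 0.414 CPM of ta-activated week 3. In edgeR *Ereg* did not pass (adjusted p = 0.261), and in DESeq2 it did (adjusted p = 0.0103). The UMIs lay in 115 of 2895 and 20 of 3822 cells, 1 cell held 31 of them, and 41 cells of ta-activated week 2 held at least 2.

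*Ereg*-positive cells were rich in *Areg*. In ta-activated week 2 the 106 *Ereg*-positive ILC2-marker cells held 5.97 *Areg* UMIs per 2000, against 1.82 in the 2473 negative ones. The Poisson 95% interval of the former was 5.52 to 6.46, which leaves out the wider spread between cells. In ta-activated week 3 the 20 positive cells held 3.55, against 1.35. Their *Il13* was higher too, 11.9 against 5.43 UMIs per 2000 in ta-activated week 2. Positive cells were deeper before thinning, with median UMIs of 29300.5 and 13720 in ta-activated week 2, and the part of depth in which cells count as *Ereg*-positive was not tested.

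*Tgfa* was close to its detection limit. It had 20 UMIs in naïve (0.617 CPM), 6 and 3 in ta-non-activated weeks 2 and 3 (0.181 and 0.319 CPM) and 14 and 3 in ta-activated weeks 2 and 3 (0.244 and 0.0485 CPM). In ta-activated week 2, 1 cell held 6 of the 14. The interval of naïve (0.377 to 0.953 CPM) overlapped those of both ta-non-activated libraries and of ta-activated week 2, and lay above that of ta-activated week 3 (upper end 0.142 CPM). No difference between ta-activated and ta-non-activated libraries was detectable at this depth (edgeR log2 fold change -0.77, SE 1.14, adjusted p = 0.748). The remaining EGF receptor ligands were also under 10 CPM in ILC2-marker cells, though not all as low as *Tgfa*. *Btc* was at 1.85 and 1.34 CPM in ta-activated weeks 2 and 3, where *Tgfa* was at 0.246 and 0.0497 CPM. In the other 3 libraries *Btc* was at 0 to 0.527 CPM. *Egf* was at 0.493 to 1.71 CPM and *Epgn* at 0 to 0.0319 CPM over the 5 libraries.

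Cycling cells held less *Areg* in both ta-activated libraries. ILC2-marker cells with UMIs of at least 2 of 12 cycling genes held 1.28 *Areg* UMIs per 2000 in ta-activated week 2, against 2.21 in the rest, and 0.884 against 1.46 in ta-activated week 3 (612 and 665 cycling cells). The values were 0.748 and 0.788 in ta-non-activated week 2, and 1.56 and 1.91 in naïve with 41 cycling cells, and the Poisson intervals overlapped in both. Cycling cells were the deeper ones, with a median of 24672.5 against 11666 UMIs in ta-activated week 2, and the part of depth was not tested.

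The receptors for these ligands were scarce in the same cells. Over ILC2-marker cells *Egfr*, the EGF receptor, was at 0 to 3.44 CPM, *Erbb2* at 0 to 0.298 CPM, *Erbb3* at 0.493 to 3.10 CPM and *Erbb4* at 0 to 0.0988 CPM, and none of the 4 reached 10 CPM. No *Nrg* gene reached 2 CPM. The shedding genes other than *Rhbdf1* (0.362 to 1.48 CPM) each reached 10 CPM in some library. *Adam17* stood at 50.7 CPM in naïve, 20.5 and 17.8 CPM in ta-non-activated weeks 2 and 3, and 24.2 and 39.5 CPM in ta-activated weeks 2 and 3. It was 2-fold or more lower than naïve in both ta-non-activated libraries, as was *Adam10*, a related sheddase. So were 35.3% of all genes in ta-non-activated week 2 and 27.8% in ta-non-activated week 3. *Rhbdf2*, which encodes the iRhom2 partner that carries ADAM17 to the surface, stood at 18.4 and 16.3 CPM in the ta-activated libraries and at 0.493 to 6.28 CPM in the other 3. The 0.493 CPM, in ta-non-activated week 3, is 1 UMI, under the limit of 1.48 CPM there.

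*Timp3*, which encodes an inhibitor of ADAM17, stood at 21.2 and 120 CPM in ta-activated weeks 2 and 3 (ILC2-marker cells). The other 3 libraries held 0.319 to 0.692 CPM, with 1 UMI behind the 0.493 CPM of ta-non-activated week 3. Over all cells *Timp3* stood at 36.7 and 140 CPM in the ta-activated libraries and at 0.331 to 2.78 CPM in the other 3. Its level was thus higher in cells outside the ILC2-marker set. The edgeR log2 fold change of *Timp3* over all cells was 5.93 (SE 1.28), and its adjusted p of 0.243 did not pass. Of 5 shedding genes at 10 CPM or more, 3 were at least 2-fold higher with activation at week 2 (*Frmd8*, *Rhbdf2* and *Timp3*) and 3 at week 3 (*Adam17*, *Rhbdf2* and *Timp3*), and none was lower. The week 3 ratios of *Rhbdf2* and *Timp3* each rest on 1 UMI in the ta-non-activated library, so their size is uncertain. The list's median log2 ratios were 1.10 and 1.15, beside medians of 0.07 and 0.29 over all genes. Of all genes, 16.8% and 23.7% were at least 2-fold higher and 11.1% and 10.5% lower. *Timp3* is counted here although it encodes an inhibitor, so the count and median of this list give no direction for shedding.

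Among the genes that restrain the receptor, *Errfi1*, which encodes the EGFR inhibitor Mig-6, was low in the same libraries as *Nr4a1*: 32.3 CPM in naïve and 22.7 CPM in ta-non-activated week 3, against 1.94 CPM in ta-non-activated week 2 and 6.90 and 2.95 CPM in ta-activated weeks 2 and 3. Of 6 feedback genes at 10 CPM or more in either library, 5 were at least 2-fold lower in ta-non-activated week 2 than in naïve and 4 in ta-non-activated week 3, against 35.3% and 27.8% of all genes. With activation 0 of 2 changed 2-fold at week 2 (16.8% of all genes higher, 11.1% lower), and 1 of 4, *Errfi1*, was lower at week 3 (10.5% of all genes). The immediate early list was low in the same libraries. Of 16 such genes at 10 CPM or more, 15 were at least 2-fold lower in ta-non-activated week 2 than in naïve (35.3% of all genes were lower) and 1, *Ier3*, was higher. In ta-activated week 3 against ta-non-activated week 3, 15 of 17 were lower (10.5% of all genes were lower) and *Ier3* again higher. The median log2 ratios were -5.86 and -4.36, against -0.23 and 0.29 over all genes. *Fos*, for example, was at 1129 and 1288 CPM in naïve and ta-non-activated week 3 and at 0.701 to 1.93 CPM in the other 3. *Areg*, at 954 and 609 CPM in the last pair, was lower by less than 2-fold.

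The type 2 effector list, to which *Il13* belongs, held genes that went either way. All 7 of its genes reached 10 CPM at week 2, where 2 (*Arg1* and *Il4*) were at least 2-fold higher in ta-activated cells and 4 (*Csf2*, *Il13*, *Il6* and *Il9*) lower, against 16.8% and 11.1% of all genes. At week 3, 4 of 6 (*Il13*, *Il4*, *Il5* and *Il9*) were higher and 1 (*Arg1*, also a gate marker) lower, against 23.7% and 10.5% of all genes. In these ILC2-marker cells the summed level of *Areg* went the other way from *Il13* at both weeks. At week 3 the fall of *Areg* was under 2-fold, and as a mean over cells it went from 828 to 682 CPM. Its share of positive cells at equal depth was higher in the ta-activated library. Over all cells both genes were higher at week 3 (log2 ratios of 1.34 and 7.78). Of the receptors for alarmins, IL-2 and cAMP-raising signals, 3 of 7 were higher at week 2 (*Crlf2*, *Il2ra* and *Il7r*) and 1 (*Ptger2*) lower, beside the same 16.8% and 11.1%. At week 3, 2 of 8 were higher (*Il2ra* and *Ptger4*) and 3 lower (*Il17rb*, *Il1rl1* and *Il7r*), beside 23.7% and 10.5%. *Il17rb* and *Il1rl1* are also gate markers, so the choice of cells bears on their levels here. Over all cells at week 3, 1 of 8 (*Il17rb*) was at least 2-fold lower and 4 (*Crlf2*, *Il2ra*, *Ptger2* and *Ptger4*) higher. The shares of all genes were taken over ILC2-marker cells only, so these counts have none beside them. *Il1rl1* over all cells stood at 82.9 CPM in the ta-non-activated and 121 CPM in the ta-activated library at week 3. *Crlf2*, a TSLP receptor chain, stood at 121 and 92.8 CPM in the ta-activated libraries and 40.8 to 83.8 CPM in the other 3, and its edgeR log2 fold change over all cells was 1.23 (SE 0.35, adjusted p = 0.254).

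**Figure D5:**
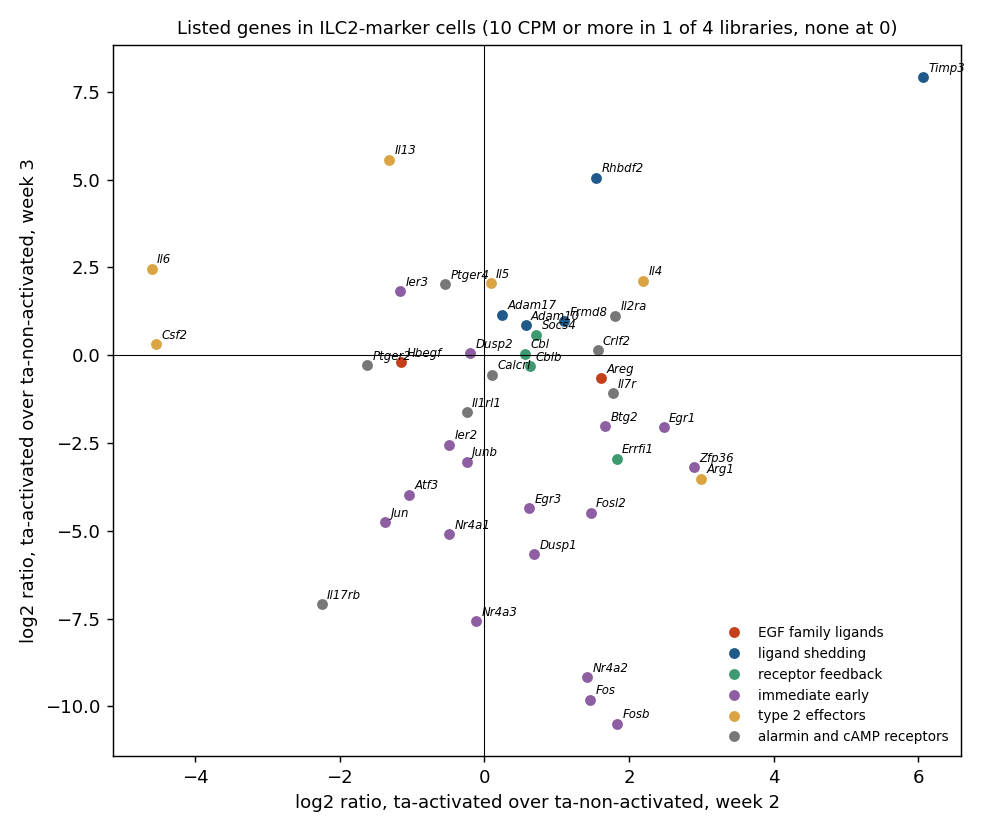
Log2 ratio of CPM in ta-activated over ta-non-activated ILC2-marker cells at week 2 (horizontal axis) and week 3 (vertical axis) for listed genes with 10 CPM or more in 1 of the 4 libraries and 0 in none, coloured by list, 1 library against 1 at each week. *Areg* lies at 1.61 and -0.65, *Il13* at -1.32 and 5.57 and *Timp3* is high in both weeks, while most immediate early genes are low at week 3.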

How the data were processed

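RNA of single ILC2s was measured with the 10x Genomics 3′ platform. The deposited matrices hold UMI counts for each gene and barcode, without normalization. Their headers name Cell Ranger 6.0.0 for naïve and 3.0.2 for the other 4 libraries, and the submitters' processing notes name Cell Ranger 3.0.2, Seurat 3 and GRCm38. The annotation release is not given in the sources used here. The ligands, gene lists and tests were chosen with earlier results of these data known. Levels in CPM divide a gene's UMIs by the total of the summed cells, with exact Poisson 95% intervals. Thinning drew 2000 UMIs per cell without replacement. Counts summed per library were compared with edgeR 4.0.16 in R 4.3.3 (filterByExpr, TMM, quasi-likelihood F test, Benjamini-Hochberg over all genes tested), 2 ta-activated against 2 ta-non-activated libraries, and the code was tested on simulated data. Comparisons of 1 library with 1 have no test, and a gene differed where CPM changed at least 2-fold and reached 10 in either library. Besides the ligands, *Il13* and *Nr4a1*, genes were named from lists of EGF ligands, neuregulins, ErbB receptors, shedding, feedback, immediate early, type 2 and alarmin or cAMP receptor genes, and by likeness to *Areg* (the 10 highest). The cell-type lists gate cells, and doublets were not called. *Ifrd1* was named after its values were seen. Alternatives were DESeq2 1.42.0, a replicate block by week, no filter, all 5 libraries in 1 fit, all barcodes, a 10% mitochondrial limit, ILC2-marker cells, each library left out, other depths, and, added after seeing the data, cells without T-marker cells and ILC2-marker cells with each library left out. Python 3.11.15, numpy 2.4.6, scipy 1.17.1, pandas 2.3.3 and matplotlib 3.10.9 were used. Intervals and limits cover counting error only. Values of 1 gene of the receptor lists were left out and are not reported here.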

Additional observations from a re-analysis of the deposited data

Results flagged for a closer look

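The ratio of ta-activated to ta-non-activated cells went opposite ways at the 2 weeks for 3 genes in at least 1 set of cells, each time 1 library against 1, and none of these differences between weeks was tested. For *Areg* in ILC2-marker cells the log2 ratio was 1.61 at week 2 and -0.65 at week 3, a difference of 2.26, while over all cells it was 1.63 and 1.34, the same way at both weeks. The week 3 fall was smaller as a mean over ILC2-marker cells, from 828 to 682 CPM. The share of these cells with an *Areg* UMI at equal depth was higher in the ta-activated library at both weeks. For *Hbegf* over all cells the log2 ratio was -1.08 and 0.80, a difference of -1.87, with 14 UMIs in ta-non-activated week 3. In ILC2-marker cells *Hbegf* went from 17.3 to 7.79 CPM at week 2. At week 3 the values were 2.96 CPM, on 6 UMIs, and 2.58 CPM after culture. The latter lay inside the interval of the former (1.09 to 6.44 CPM), so no direction was shown there. For *Il13* the log2 ratio was -1.34 and 7.78 over all cells, a difference of -9.12, and -1.32 and 5.57 in ILC2-marker cells, a difference of -6.88. Genes with at least 10 UMIs in each of the 4 libraries were considered, and *Nr4a1*. In ILC2-marker cells *Nr4a1* was lower after culture at week 3 (log2 ratio -5.10). At week 2 it was under 10 CPM in both libraries and its ratio (-0.49) was under 2-fold.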

How the results depend on the processing

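No ligand passed 0.05 in edgeR under any setting run. In DESeq2 1160 genes were called, and *Ereg* passed with a log2 fold change of 7.78. Leaving out 1 library at a time over all cells gave 0 to 1646 calls and log2 fold changes of 0.93 to 1.91 for *Areg*, -2.00 to 1.92 for *Hbegf*, 6.78 to 10.1 for *Ereg* and -1.03 to -0.03 for *Tgfa*. Over ILC2-marker cells these ranges were -0.37 to 1.01, -2.31 to 0.68, 6.61 to 9.93 and -1.86 to 0.13. *Tgfa* was filtered out in the fits without ta-activated week 2. *Areg* reversed to -0.28 and -0.37 in ILC2-marker cells without ta-non-activated week 2 and without ta-activated week 2, *Hbegf* to 1.92 and 0.68 without ta-non-activated week 2 over all and ILC2-marker cells, and *Tgfa* to 0.13 in ILC2-marker cells without ta-activated week 3. Over ILC2-marker cells 523 genes were called without ta-non-activated week 2, 949 without ta-non-activated week 3 and 15 without either ta-activated library. In these fits the lone library of a group is assumed to vary like the others. The causes were not tested. A replicate block by week gave 0 calls and 1.39 for *Areg*. Deviations of same-week libraries from their group means correlated at -0.061. With 2 libraries per group this is 1 value for both weeks, so it cannot show whether same-week libraries share mice or a batch.

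*Areg* levels in CPM moved beyond counting error as follows. As a mean over cells it was 879 in naïve, 367 and 382 in ta-non-activated weeks 2 and 3, and 958 and 671 in ta-activated weeks 2 and 3. In ILC2-marker cells it was 1000.4, 361, 954, 1105 and 609 in the same order. Without T-marker cells it was 983 in naïve, 916 in ta-non-activated week 3 and 1110.5 in ta-activated week 2. With all barcodes it was 1076 and 583 in ta-activated weeks 2 and 3, and at the 10% mitochondrial limit 1053 and 584. The *Areg* share of cells moved beyond its interval in 18 of 20 alternatives: without thinning it was 53.3% in naïve, 51.7% and 22.2% in ta-non-activated and 80.7% and 73.8% in ta-activated weeks 2 and 3, so ta-non-activated week 2 came near naïve. Spearman's rho of *Areg* with *Il13* in ta-activated week 2 was 0.272, and r without thinning in ta-activated week 3 was 0.357. The other 18 alternative values for *Il13* and all 20 for *Nr4a1* moved by less than the SD over libraries. For *Nr4a1* this is a loose limit, since its r differed widely between libraries. At 1000 UMIs per cell its r was 0.328 in naïve, against 0.398 at 2000. In ta-activated week 2 it was 0.047, against 0.133. Between 8 and 10 of the 10 genes most like *Areg* stayed on the list. Depth limits *Tgfa*, *Ereg* and, in ta-non-activated week 3, *Hbegf*.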
